A study of Arabidopsis thaliana with 115 samples.

Results

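The 35 aquaporin genes of Arabidopsis thaliana were followed through an assay of 33 transcription factors (TFs). They are the genes of the PIP, TIP, NIP and SIP subfamilies, taken by their gene identifiers from the 33016 genes in the count files: 13 PIPs, 10 TIPs, 9 NIPs and 3 SIPs. In the TARGET assay a TF is fused to the rat glucocorticoid receptor (GR), and the fusion enters the nucleus of a transfected root protoplast when dexamethasone (DEX) is added. Cells with a GR-TF fusion were compared with cells that carried GR alone, the empty vector (EV), of the same batch. All groups came from roots of 10-day-old wild-type Col-0 seedlings grown on 1 mM KNO3. All of them, EV included, were given 20 mM KNO3 plus 20 mM NH4NO3 (60 mM N in total) for 2 h, then 35 µM cycloheximide (CHX), which blocks protein synthesis, 20 min before 10 µM DEX for 3 h. Transfected cells were sorted by the fluorescent marker of the vector before RNA sequencing. The 97 TF libraries and 18 EV libraries fell into 6 batches with 3 EV libraries each, and each TF was assayed in 1 batch with 3 libraries, except FBH4 and HAT22 with 2. Replicates of a TF were wells filled from 1 pool of transfected protoplasts, so the p-values measure the spread within an assay, and the TFs of a batch share its EV libraries.

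Aquaporins are channels of the major intrinsic protein family that let water and small uncharged solutes cross membranes. In plants the PIPs reside mainly in the plasma membrane and the TIPs in the vacuolar membrane (tonoplast), and together they carry much of the water flow from cell to cell in roots. NIPs pass solutes such as boric acid, glycerol, silicic acid or lactic acid, and SIPs are small proteins of the endoplasmic reticulum. The pore is lined by 2 short loops that each hold an Asn-Pro-Ala (NPA) motif, and the subfamilies differ in how strictly they keep it.

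The stretches around this motif show how members of different subfamilies keep it or depart from it. The sequences are coding strands of RefSeq genes on the TAIR10.1 assembly, written 5′ to 3′, and capitals mark the 9 bases at the place of the motif. The first box of PIP2.2 (chr2:15614341-15614367, minus strand) and of TIP1.1 (chr2:15445733-15445759, plus strand) and both boxes of NIP5.1 (chr4:6432360-6432386 and chr4:6431686-6431712, minus strand) are shown because the results turn on these members.
PIP2.2 box 1: ggtcacataAACCCTGCGgtgacgttt
TIP1.1 box 1: ggacacgttAACCCTGCCgtcactttc
NIP5.1 box 1: gctcacctaAACCCATCActgaccata
NIP5.1 box 2: ggatctatgAATCCTGTGagaactcta
The first box ends in an alanine codon in all 23 PIPs and TIPs. In NIP5.1, the boric acid channel of the root surface, neither box ends in an alanine codon.

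The libraries held between 1542961 and 45372240 counts, and the aquaporins took between 0.0333% and 0.148% of a library. The median library had 14342552 counts in batches 1 to 4 and 5198906 counts in batches 5 and 6. In batches 5 and 6 the 10 most abundant genes took 18.3% to 49.5% of the counts, and in batches 1 to 4 they took 4.69% to 8.14%. Of markers fixed for cell types, green shoot genes (RBCS1A, RBCS3B and LHCB1.1) summed to at most 0.772 CPM (counts scaled to library size) in any EV library. Markers of the stele summed to 46.2 to 187 CPM in EV, those of the endodermis to 6.33 to 42.1 CPM, and the cortex marker CO2 was at 0 in all 18 EV libraries. The protoplasts are a mix of root cell types, so fewer cells of a type and less RNA per cell cannot be told apart in these libraries.

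Of the 35 members, 30 had at least 10 counts in at least 3 libraries and were tested. The others were PIP2.6, PIP2.8, TIP5.1, NIP4.1 and NIP4.2, all close to silent in root protoplasts: their counts summed over all 115 libraries to 92, 98, 129, 1 and 73. TIP4.1 is on the list of CHX-responsive genes, which do not count as targets, so 29 members could be called. Levels between genes are compared per length, as CPM per kb of exon in the EV libraries. PIP1.2 is a plasma membrane channel that carries a large part of root water transport. Its mean was the highest, with 84.4 ± 28.9 CPM per kb (SD, n = 18), but it did not lead in every batch. NIP5.1 was above PIP1.2 in EV of batch 2 (110 against 102 CPM per kb) and batch 3 (48.0 against 43.7). TIP2.1 was above PIP1.2 in EV of batch 5 (124 against 89.0) and batch 6 (93.7 against 58.7). TIP1.1, the main water channel of the tonoplast, had 49.0 ± 34.5 CPM per kb, TIP2.1 had 44.6 ± 47.5 and NIP5.1 had 41.1 ± 37.2. PIP1.1, PIP2.1, NIP1.2 and PIP2.2 followed with 37.8 ± 22.0, 36.9 ± 19.9, 33.7 ± 27.3 and 28.4 ± 16.5 CPM per kb. The SDs from TIP1.1 down to PIP2.2 are larger than the steps between neighbours in this order. At the low end of the tested members, TIP1.3, TIP4.1, NIP1.1 and NIP7.1 averaged 0.237 to 0.370 CPM per kb.

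**Figure D1:**
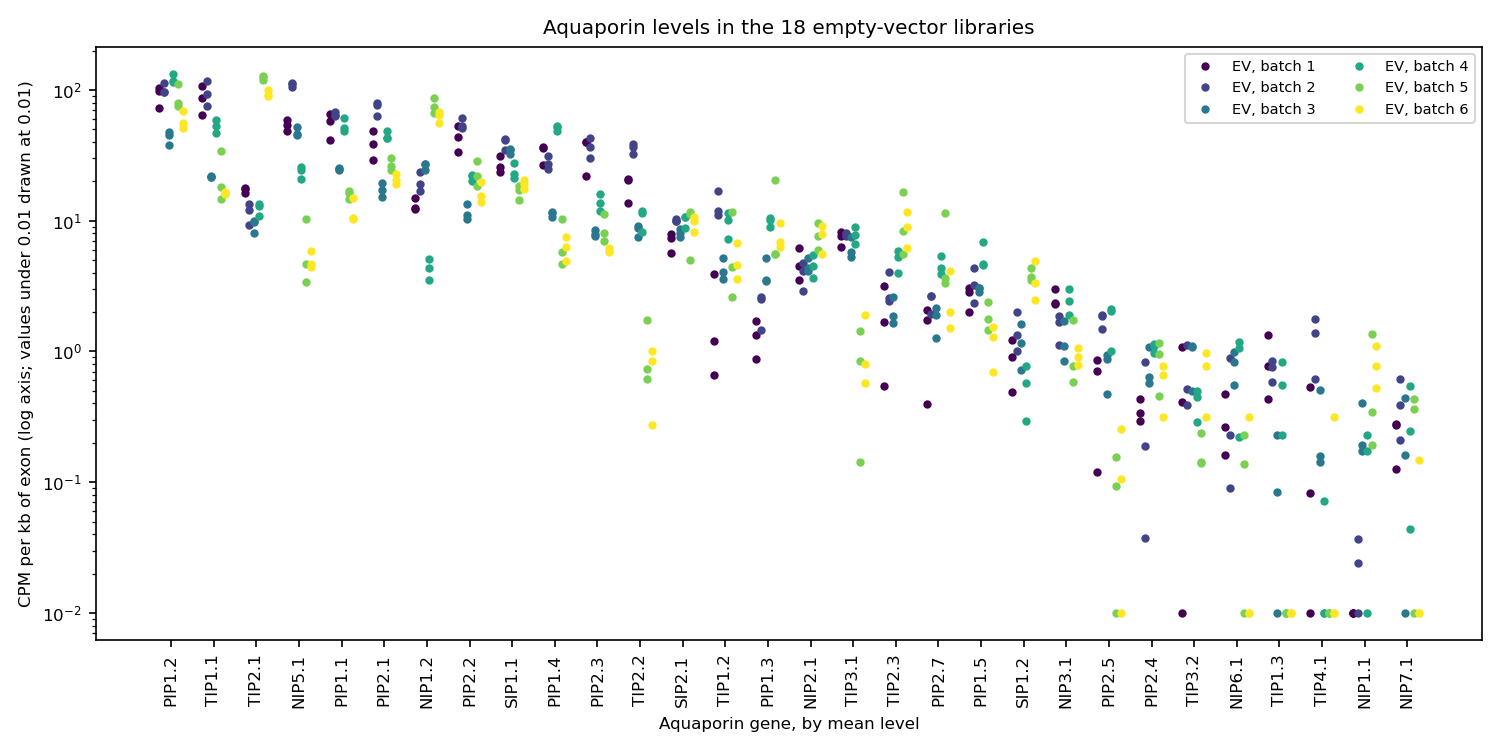
Level of the 30 tested aquaporins in the 18 EV libraries, as CPM per kb of exon on a log axis, with 1 point per library coloured by batch and values under 0.01 drawn at 0.01. PIP1.2 has the highest mean, 84.4 CPM per kb, but does not lead in every batch. For TIP2.1, NIP1.2, NIP5.1 and TIP2.2 the points of batches 5 and 6 lie apart from those of batches 1 to 4.

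Much of this spread lay between batches. For 9 of the 30 members the 6 EV libraries of batches 5 and 6 did not overlap with the 12 EV libraries of batches 1 to 4. The share of all genes that separated in this way is not given here, so the shift is not shown to be particular to aquaporins. TIP2.1, a tonoplast channel for water, ammonia and urea, had 107 to 151 CPM in EV of batches 5 and 6, against 9.61 to 21.0 CPM in batches 1 to 4. NIP1.2, a channel for glycerol and aluminium malate, had 80.3 to 124 CPM against 5.10 to 39.4 CPM, and SIP1.2 had 3.22 to 6.37 CPM against 0.378 to 2.61 CPM. The other 6 members were lower in batches 5 and 6. NIP5.1 had 7.37 to 22.2 CPM there and 44.9 to 246 CPM in batches 1 to 4, and TIP2.2 had 0.373 to 2.35 CPM there and 10.2 to 52.3 CPM in batches 1 to 4. PIP1.1, PIP1.4, TIP3.1 and SIP1.1 were the remaining members of this kind. Batch, depth and the day of the assay cannot be told apart here, and for this reason every TF was set against the EV of its own batch.

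A member was called for a TF, which makes an edge from the TF to the gene, when the false discovery rate (FDR, the Benjamini-Hochberg adjusted p of edgeR's quasi-likelihood F-test over all genes) was under 0.05. Over the 33 TFs there were 112 edges to aquaporins among 957 tests (11.7%), against 8.88% of tests over all 21485 genes that could be called. By DESeq2 the shares were closer: 125 of the 825 member tests with an adjusted p were called (15.2%), against 13% over all genes. Of the 112 edges by edgeR 49 were inductions and 63 were repressions (each out of 957 tests), where 4.36% and 4.52% of the tests over all genes were called in each direction. For 103 of the 112 edges the TF libraries did not overlap with the EV libraries of the batch. The edges were called on these same libraries, so this count is no separate support. The share among all called genes is not given here. The share differed with abundance. The 13 members with at least 10 CPM in EV had 88 edges in 429 tests (20.5%), against 15% of tests over all genes at that level, and the other 16 members had 24 edges in 528 tests (4.55%). By subfamily, the PIPs had 52 edges in 363 tests (14.3%), the TIPs 37 in 264 (14%), the NIPs 18 in 231 (7.79%) and the SIPs 5 in 99 (5.05%). PIP and TIP edges were more often repressions (32 of 52 and 24 of 37), and 13 of the 18 NIP edges were inductions. Many of the PIP and TIP repressions came from few TFs. Of the 63 repressions over all subfamilies, TGA1 had 14 and GATA17 and HSFB2A had 10 each, and GATA17 and HSFB2A share their EV libraries. More repressions than inductions of PIPs and TIPs are thus not shown for the other TFs. Of the 29 members, 23 had an edge from at least 1 TF. Those without any were PIP2.4, TIP1.3, NIP3.1, NIP6.1, NIP7.1 and SIP2.1, whose lowest FDR over the 33 TFs in edgeR was 0.0587 (NIP3.1 and WRKY54).

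**Figure D2:**
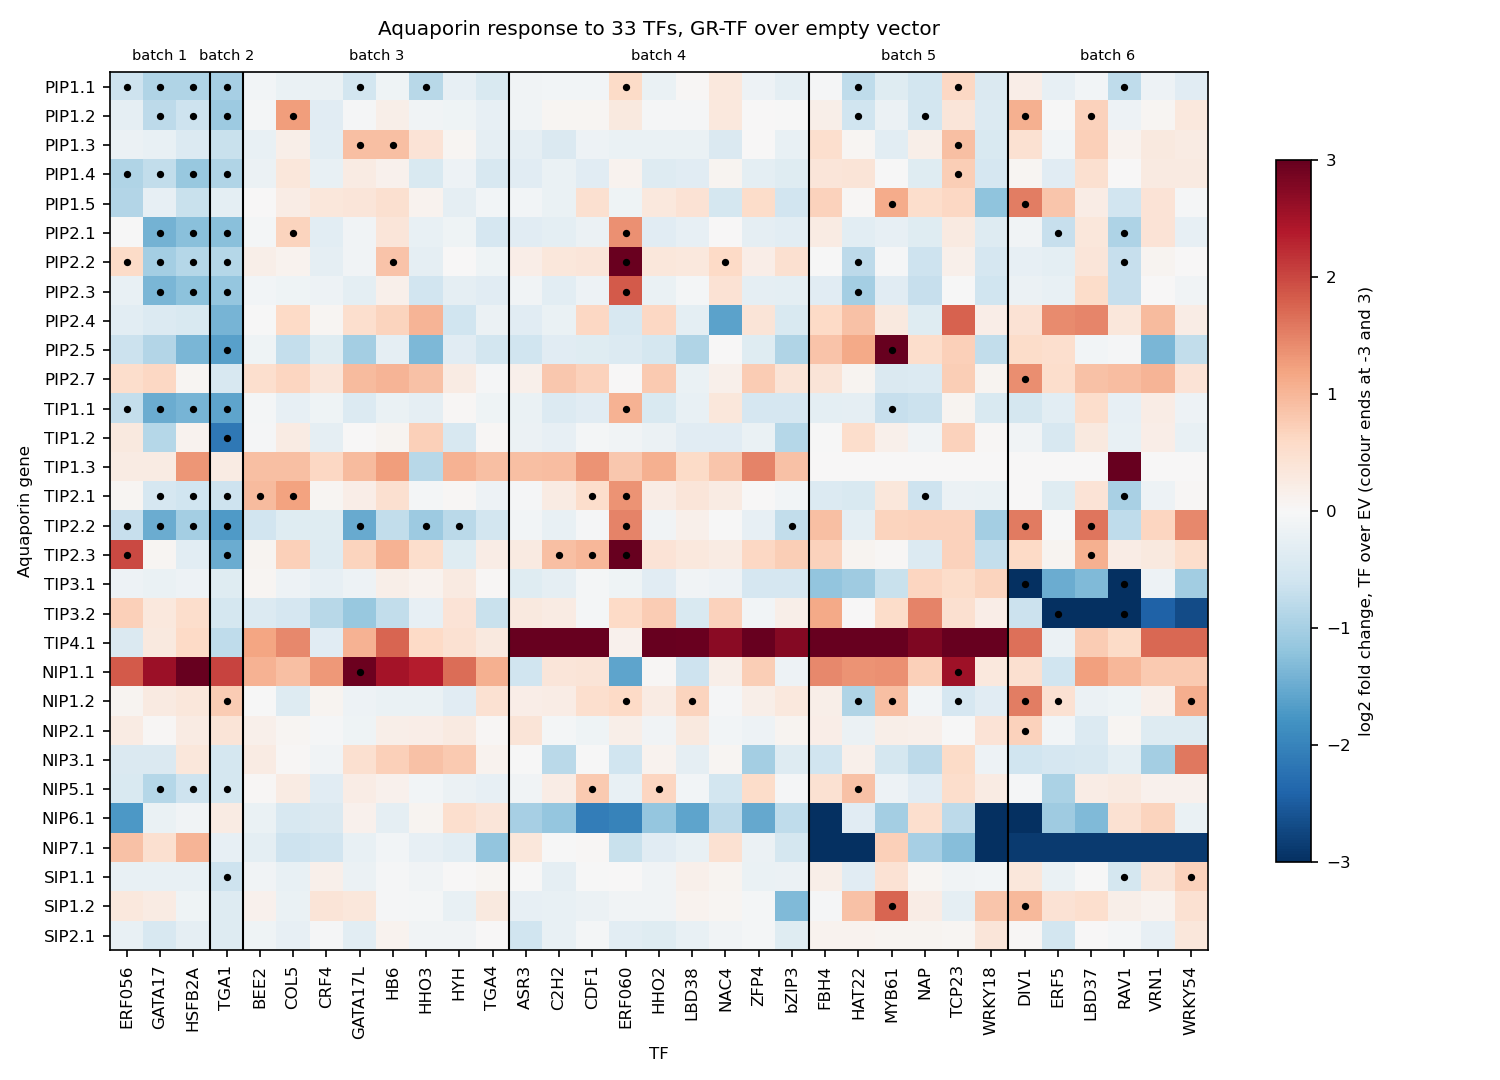
Log2 fold change of the 30 tested aquaporins (rows) for each of the 33 TFs over EV (columns, grouped by batch), with colours ending at -3 and 3 and a dot for each of the 112 calls. In the PIP and TIP rows the calls of GATA17, HSFB2A and TGA1 are all repressions and the 8 calls of ERF060 are all inductions, and strongly coloured cells with no dot, as in the rows of TIP4.1 and NIP7.1, did not count as calls.

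The TFs differed widely in how many aquaporins they reached. TGA1, a bZIP factor of the nitrate response, had 15 of the 29 members called (51.7%, against 19.3% of all genes). GATA17 and HSFB2A had 10 each (34.5%), against 15.3% of all genes for GATA17 and 20.5% for HSFB2A. ERF060, of the AP2/ERF family, had 9 (31%) although 4.42% of all genes were called for it. DIV1 with 8 members (27.6%, against 24.5%) and RAV1 with 7 (24.1%, against 24%) had shares close to those of all genes. ERF056 and HAT22 had 6 each, where 17.1% and 15.1% of all genes were called, MYB61 and TCP23 had 5 each (11.1% and 9.18% of all genes) and GATA17L had 4 (4.18% of all genes).

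The other TFs had few calls in the fit of all batches together. CDF1, COL5, ERF5 and LBD37 had 3 members each, with 6.38%, 3.6%, 7.04% and 9.66% of all genes called. HB6, HHO3, NAP and WRKY54 had 2 each, with 5.39%, 2.49%, 8% and 9.9% of all genes called. BEE2, bZIP3, C2H2, HHO2, HYH, LBD38 and NAC4 had 1 each, with 0.656%, 12.1%, 14%, 7.9%, 5.58%, 4.38% and 4.93% of all genes called. ASR3, CRF4, FBH4, TGA4, VRN1, WRKY18 and ZFP4 had 0 calls by edgeR in the fit of all batches, where 3.53%, 0.745%, 5.62%, 1.17%, 2.31%, 4.84% and 8% of all genes were called. At an unadjusted p under 0.05 these had 3, 1, 2, 5, 3, 10 and 8 members. DESeq2 called 1 member for ASR3, 1 for TGA4 and 0 for the others. Calls rose for many of the TFs with few calls when the fit used 1 batch at a time. ZFP4 then had 7 calls, bZIP3 8, CDF1 7, HHO2 and HB6 6 each, and C2H2 and NAC4 5 each. NAP went down to 1 and ERF5 to 2, and CRF4, FBH4, VRN1 and WRKY18 stayed at 0. The share of all genes called for each TF in that fit is not given here.

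**Figure D3:**
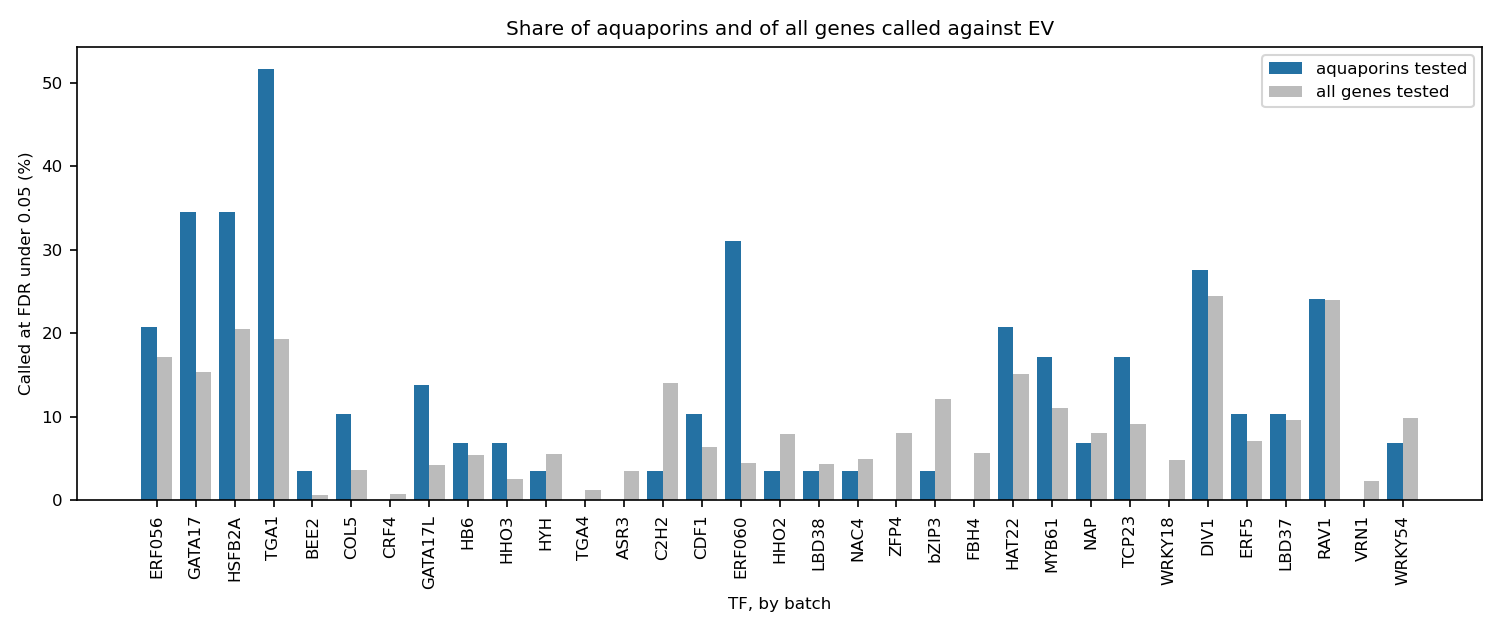
Share of the 29 aquaporins that could be called (blue) and of all 21485 genes (grey) with an FDR under 0.05 against EV, in percent, for each TF in batch order. TGA1 reached 51.7% of the aquaporins and 19.3% of all genes, and ERF060 31% and 4.42%.

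Among the PIP1 genes, whose products reach the plasma membrane in complexes with PIP2 proteins, all 5 members had an edge, 28 in total with 17 repressions. PIP1.1 (AT3G61430, chr3:22733243-22735394, plus strand) was called for 10 TFs, with 8 repressions. It had 41.6, 60.5 and 52.1 CPM in TGA1 libraries, against 98.6, 106 and 101 CPM in EV. All TGA1 libraries were below all EV libraries, and the mean was 0.506 times that of EV (edgeR FDR 1.55e-06). The largest of its 2 inductions came from TCP23, with 45.8, 32.8 and 32.9 CPM in TCP23 libraries, against 26.4, 25.4 and 22.6 CPM in EV. That difference of 0.62 ± 0.20 (log2 fold change ± SE, edgeR FDR 0.03) was called under 4 of 10 other settings, and its FDR was 0.192 without replicate 1 of every group, 0.112 without replicate 2 and 0.079 without replicate 3.

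PIP1.2 (AT2G45960, chr2:18910081-18911982, plus strand) was called for 8 TFs, 3 of them upward. COL5, a CONSTANS-like B-box factor, raised it most, with 189, 148 and 162 CPM in COL5 libraries, against 76.6, 60.7 and 72.1 CPM in EV. The lowest COL5 library was above the highest EV library, and the log2 fold change was 1.26 ± 0.17 (edgeR FDR 5.44e-08). DIV1 and LBD37 also raised it, by 1.07 ± 0.17 and 0.69 ± 0.17 on the log2 scale. In TGA1 libraries PIP1.2 had 73.4, 80.7 and 75.5 CPM, against 154, 180 and 155 CPM in EV, a log2 fold change of -1.09 ± 0.17 (edgeR FDR 3.5e-07).

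PIP1.4, a channel also known to pass hydrogen peroxide, fell by 0.74 to 1.14 on the log2 scale for GATA17, ERF056, TGA1 and HSFB2A. In HSFB2A libraries it averaged 30.2 ± 4.04 CPM (SD, n = 3), against 66.2 ± 11.2 CPM in EV. TCP23 raised PIP1.4 by 0.74 ± 0.22 on the log2 scale, with overlap of 1 TCP23 library with EV. This call (edgeR FDR 0.0151) was made under 5 of 10 other settings. PIP1.3 had inductions only among its calls, from GATA17L, HB6 and TCP23 with log2 fold changes of 0.90 to 0.91. The TCP23 libraries of PIP1.3 (25.9, 18.9 and 54.6 CPM) overlapped with EV (31.8, 8.66 and 8.54 CPM), and that call was made under 5 of 10 other settings. The calls of PIP1.3 for GATA17L and HB6 were lost without replicate 1 of every group and without replicate 2, and that for TCP23 without replicate 2 and without replicate 3. PIP1.5 was induced by DIV1 and MYB61, with 2.78 to 6.33 CPM in DIV1 libraries, against 0.932 to 2.05 CPM in EV. The MYB61 libraries (3.05, 8.61 and 4.95 CPM) overlapped with EV (3.15, 1.95 and 2.35 CPM), and this call (edgeR FDR 0.0436) was made under 5 of 10 other settings.

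The PIP2 genes encode the PIPs with high water transport on their own, and 5 of the 6 tested members had edges. PIP2.1 (AT3G53420, chr3:19803473-19805730, minus strand), which transports water and hydrogen peroxide, was called for 7 TFs. ERF060 libraries had 184, 170 and 195 CPM, against 76.1, 68.0 and 67.0 CPM in EV. The groups were far apart, with a log2 fold change of 1.38 ± 0.16 (edgeR FDR 1.79e-10). GATA17 libraries had 24.1, 23.6 and 20.8 CPM, against 75.8, 60.8 and 46.1 CPM in EV. This repression of -1.43 ± 0.17 (log2, edgeR FDR 2.04e-10) was close in size to those by HSFB2A (-1.26 ± 0.17) and TGA1 (-1.26 ± 0.16), and RAV1 and ERF5 lowered the gene by 0.94 and 0.69 on the log2 scale.

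PIP2.2 (AT2G37170, chr2:15613368-15615022, minus strand), a channel with a known part in root water uptake, had the induction with the lowest FDR of any edge. It stood at 229, 203 and 243 CPM in ERF060 libraries, against 29.3, 27.2 and 30.1 CPM in EV, which is 7.80 times the EV mean. The log2 fold change was 2.97 ± 0.19 (edgeR FDR 7.7e-23). GATA17 lowered it most, to 30.3, 31.3 and 25.2 CPM in GATA17 libraries, against 71.1, 58.8 and 44.8 CPM in EV (log2 fold change -1.02 ± 0.18, edgeR FDR 1.47e-05).

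PIP2.3 lies beside PIP2.2 on chromosome 2 (AT2G37180, chr2:15617635-15619155, plus strand) and is its closest relative: 94.8% of the aligned coding bases are identical, the longest stretch in common has 242 bases, and 27.1% of the 50-base words of PIP2.2 also occur in PIP2.3. The stretch printed here, with capitals at the 7 bases that differ, is one where reads can tell the genes apart, from chr2:15614219-15614248 (minus strand) for PIP2.2 and chr2:15618322-15618351 (plus strand) for PIP2.3.
PIP2.2: CaaAgcCtttcaaagctctTactatgAtCG
PIP2.3: GaaGgcAtttcaaagctctCactatgTtAA
Reads from the common stretches cannot be assigned to 1 of the genes, and how the counting treated them is not given in the sources used here, so the split between PIP2.2 and PIP2.3 is uncertain. In ERF060 libraries PIP2.3 had 55.7, 56.6 and 69.0 CPM, against 14.4, 19.5 and 16.7 CPM in EV (log2 fold change 1.84 ± 0.19, edgeR FDR 1.63e-13). With the counts of both genes summed, ERF060 gave a log2 fold change of 2.64 (edgeR FDR 4.12e-20), and 8 TFs had a call, against 9 TFs with a call for either gene. ERF056 (FDR 0.246) and NAC4 (FDR 0.0661) were no longer called in edgeR for the sum, and NAP was (FDR 0.0437).

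The remaining PIP2 genes were low. PIP2.5 had 0.521, 1.39 and 1.39 CPM in TGA1 libraries, against 2.68, 3.37 and 3.42 CPM in EV (log2 fold change -1.63 ± 0.54, edgeR FDR 0.0204). MYB61 had 20 counts of PIP2.5 over its 3 libraries, against 2 counts in EV, and this call was made under 5 of 10 other settings. PIP2.7 was induced by DIV1, with 7.49, 9.64 and 17.0 CPM in DIV1 libraries, against 3.18, 2.42 and 6.64 CPM in EV (log2 fold change 1.39 ± 0.41, edgeR FDR 0.00747).

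**Figure D4:**
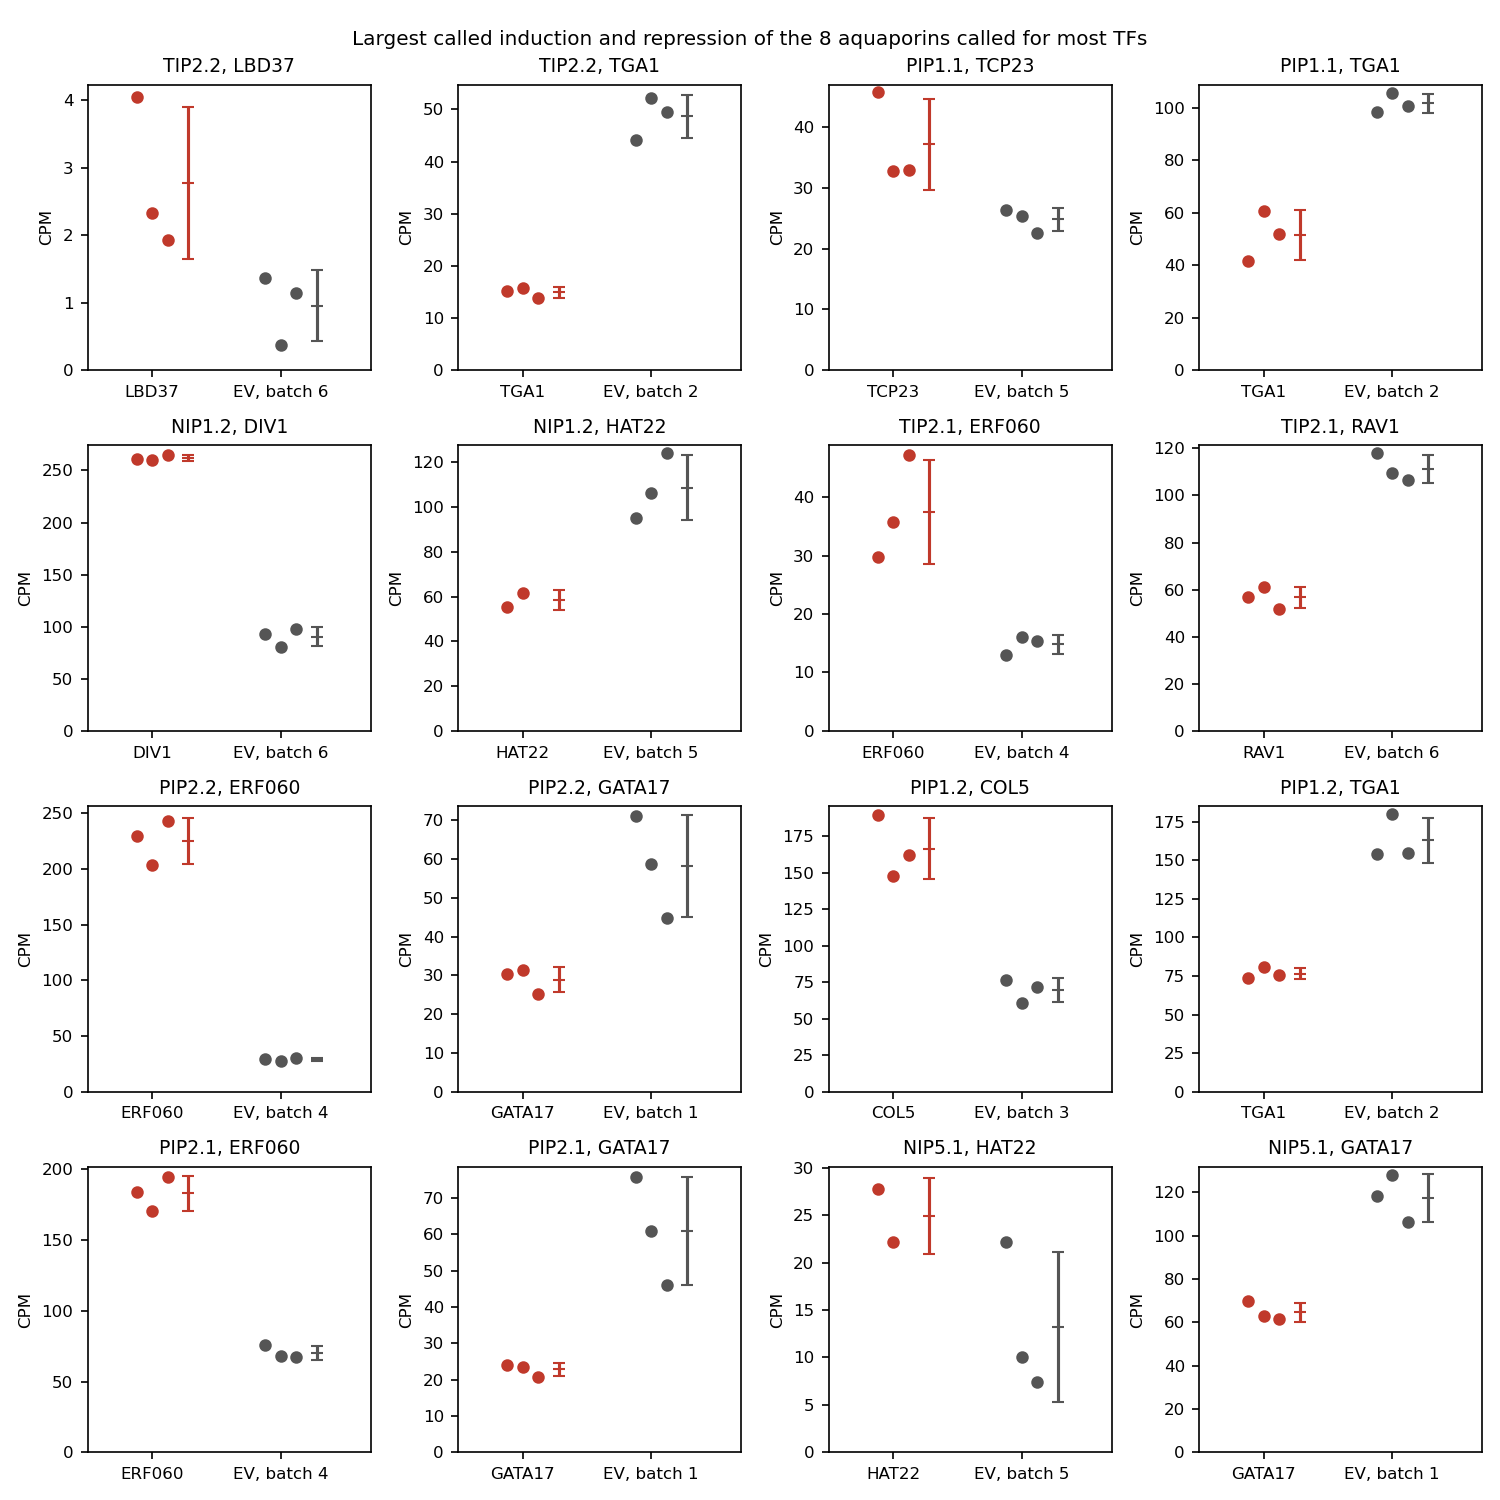
CPM in each TF and EV library for the largest called induction and the largest called repression of the 8 aquaporins called for most TFs, with the mean and SD beside the points and a vertical axis from 0 in each panel. PIP2.2 stood at 203 to 243 CPM in ERF060 libraries, against 27.2 to 30.1 CPM in EV, and NIP5.1 in HAT22 libraries (22.1 and 27.7 CPM) overlapped with EV (7.37 to 22.2 CPM).

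Of the TIPs, TIP2.2 (AT4G17340, chr4:9698940-9700472, plus strand), a tonoplast channel close to TIP2.1, was called for 11 TFs, more than any other member, with 8 repressions. TGA1 libraries had 15.1, 15.8 and 13.8 CPM, against 44.1, 52.3 and 49.6 CPM in EV. The log2 fold change was -1.71 ± 0.24 (edgeR FDR 1.1e-08), and GATA17L (-1.51 ± 0.27), GATA17 (-1.48 ± 0.24), HHO3 (-1.09 ± 0.26) and HSFB2A (-1.03 ± 0.24) were next. ERF060 raised TIP2.2 to 35.6, 42.4 and 40.6 CPM in ERF060 libraries, against 16.0, 11.1 and 15.5 CPM in EV (log2 fold change 1.48 ± 0.24, edgeR FDR 2.12e-06). The largest induction by the fitted value was that of LBD37, with 4.05, 2.33 and 1.93 CPM in LBD37 libraries, against 1.36, 0.373 and 1.14 CPM in EV (log2 fold change 1.60 ± 0.54, edgeR FDR 0.0385). It rests on 61 counts against 14, and its FDR was 0.226 without replicate 1 of every group and 0.308 without replicate 2.

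TIP2.1 (AT3G16240, chr3:5505360-5507050, plus strand) was called for 9 TFs. ERF060 libraries had 29.7, 35.7 and 47.2 CPM, against 12.9, 16.1 and 15.4 CPM in EV (log2 fold change 1.35 ± 0.17, edgeR FDR 1.32e-09). COL5 and BEE2, a bHLH factor of the brassinosteroid response, raised it by 1.21 ± 0.18 and 0.94 ± 0.18 on the log2 scale, and it was the 1 member called for BEE2. RAV1 lowered it, with 56.8, 61.2 and 51.9 CPM in RAV1 libraries, against 118, 110 and 107 CPM in EV (log2 fold change -0.97 ± 0.16, edgeR FDR 6.48e-07). The RAV1 and EV libraries did not overlap.

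TIP2.3, which passes ammonia and urea, was called upward for 5 of its 6 TFs. ERF060 libraries had 38.8, 54.5 and 51.9 CPM, against 4.62, 6.85 and 6.19 CPM in EV, 8.23 times the EV mean and the largest ratio of mean CPM among the calls. The log2 fold change was 3.04 ± 0.30 (edgeR FDR 7.01e-14), and by this fitted value the induction of PIP2.5 for MYB61 was slightly larger (3.06). ERF056 raised TIP2.3 to 10.6, 6.68 and 10.4 CPM in ERF056 libraries, against 3.69, 1.95 and 0.637 CPM in EV (log2 fold change 1.98 ± 0.34, edgeR FDR 2.35e-06), and LBD37, CDF1 and C2H2 raised it by 0.90 to 1.08 on the log2 scale. TGA1 lowered it to 0.868, 1.53 and 1.67 CPM in TGA1 libraries, against 3.01, 4.70 and 2.83 CPM in EV.

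TIP1.1 fell for TGA1, GATA17, HSFB2A, ERF056 and MYB61 and rose for ERF060, and the MYB61 call (edgeR FDR 0.0492) was made under 2 of 10 other settings. TGA1 libraries had 35.5, 45.4 and 37.6 CPM, against 93.9, 144 and 115 CPM in EV (log2 fold change -1.58 ± 0.20, edgeR FDR 1.56e-09), and ERF060 libraries had 137, 128 and 137 CPM, against 72.5, 58.1 and 65.4 CPM in EV (log2 fold change 1.04 ± 0.19, edgeR FDR 1e-04). TIP1.2, a second tonoplast channel of this group, was called for TGA1 alone, with 2.20, 6.11 and 4.04 CPM in TGA1 libraries, against 15.3, 21.9 and 14.2 CPM in EV (log2 fold change -2.16 ± 0.39, edgeR FDR 1.17e-05).

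The seed channels TIP3.1 and TIP3.2, known from the membrane of protein storage vacuoles, were called downward only, in batch 6 and on few counts. TIP3.1 had 0 counts over the DIV1 libraries and 3 over the RAV1 libraries, against 20 in EV. Set against a floor of 3 counts over the group, TIP3.1 was at least 7.15-fold lower in DIV1. The TIP3.1 call for DIV1 was lost with DIV1 fitted in its own batch only. That for RAV1 was lost in its own batch, with batches 5 and 6 fitted apart, and without replicate 2 of every group. TIP3.2 had 0 counts in ERF5 and 1 in RAV1, against 12 in EV, and both calls were lost when any 1 replicate number was left out. TIP4.1, not counted because it responds to CHX, passed the threshold for CDF1 alone, with 0.908, 1.11 and 0.684 CPM in CDF1 libraries, against 0, 0 and 0.0836 CPM in EV (80 counts against 1).

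Among the NIPs, NIP1.2 (AT4G18910, chr4:10366044-10368510, plus strand) was called for 9 TFs, with 7 inductions. DIV1, a MYB-like factor, gave the largest, with 261, 260 and 265 CPM in DIV1 libraries, against 93.2, 80.3 and 98.0 CPM in EV. The log2 fold change was 1.53 ± 0.14 (edgeR FDR 3.17e-16). WRKY54 (1.08 ± 0.14) and MYB61 (0.91 ± 0.14) raised it too, and so did TGA1 (0.75 ± 0.14), for which it was the single member called upward. HAT22, a class II HD-Zip factor, lowered it to 55.5 and 61.6 CPM in HAT22 libraries, against 95.3, 106 and 124 CPM in EV (log2 fold change -0.90 ± 0.17, edgeR FDR 1.15e-05).

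NIP5.1 (AT4G10380, chr4:6431161-6435396, minus strand) was called for 6 TFs, 3 in each direction. GATA17 libraries had 69.7, 62.8 and 61.4 CPM, against 118, 128 and 106 CPM in EV (log2 fold change -0.86 ± 0.19, edgeR FDR 5.79e-04), and its FDR was 0.133 without replicate 2 of every group. HSFB2A and TGA1 lowered it by 0.62 and 0.53 on the log2 scale. Upward, CDF1 libraries had 98.4, 79.4 and 87.9 CPM, against 53.1, 44.9 and 55.4 CPM in EV (log2 fold change 0.79 ± 0.19, edgeR FDR 0.00372). HHO2 raised it by 0.63 ± 0.20 on the log2 scale. The fitted change was larger for HAT22 (0.89 ± 0.29, edgeR FDR 0.0241), but its libraries with 27.7 and 22.1 CPM overlapped with EV at 22.2, 10.1 and 7.37 CPM, and its FDR was 0.234 without replicate 3 of every group. Without replicate 2 HAT22 is left with 1 library, whose spread is then assumed to be that of the other groups, and the FDR was 0.252.

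NIP1.1, which passes arsenite, was called upward for GATA17L (158 counts against 13 in EV) and TCP23 (70 counts against 16). In GATA17L libraries it had 6.07, 1.17 and 1.62 CPM, so that 1 library held most of the signal, against 0.253, 0.584 and 0.279 CPM in EV. NIP2.1, a lactic acid channel induced by low oxygen, had 11.8, 8.71 and 35.0 CPM in DIV1 libraries, against 11.1, 12.9 and 7.77 CPM in EV. These groups overlapped, and its call (edgeR FDR 0.0496) was made under 4 of 10 other settings and lost, among others, with DIV1 in its own batch and without replicate 3 of every group. NIP3.1, NIP6.1, a boric acid channel of the shoot, and NIP7.1 had no edge.

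The SIPs had 5 edges. SIP1.1 fell for TGA1 (31.6, 35.3 and 32.6 CPM in TGA1 libraries, against 54.5, 53.2 and 45.2 CPM in EV, edgeR FDR 2.74e-04) and RAV1 and rose for WRKY54. SIP1.2 had 15.1, 19.6 and 15.2 CPM in MYB61 libraries, against 4.81, 5.58 and 4.52 CPM in EV (log2 fold change 1.75 ± 0.36, edgeR FDR 8.89e-05), and DIV1 raised it by 0.98 ± 0.37 on the log2 scale.

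Taken by TF, TGA1 lowered 14 members and raised NIP1.2 (in all genes, 10.2% were called downward and 9.03% upward). Its calls spanned all 4 subfamilies: PIP1.1, PIP1.2, PIP1.4, PIP2.1, PIP2.2, PIP2.3, PIP2.5, TIP1.1, TIP1.2, TIP2.1, TIP2.2, TIP2.3, NIP5.1 and SIP1.1 fell. The median log2 fold change of the 29 members was -0.61, against -0.03 over all genes. The summed level of the 35 aquaporins was 564 to 688 CPM in TGA1 libraries, against 1062 to 1218 CPM in EV. In the same libraries all 3 root hair markers fell, with sums of 23.2 to 29.9 CPM in TGA1 and 69.2 to 94.1 CPM in EV, and 2 of 6 stele markers fell, with sums of 46.4 to 53.0 CPM in TGA1 and 60.7 to 70.4 CPM in EV. Of the 3 endodermis markers 0 were called by edgeR. The part of these markers in the aquaporin changes was not tested.

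GATA17 and HSFB2A, both of batch 1 and compared with the same 3 EV libraries, each had 10 members called downward and 0 upward. Of all genes, 8.82% and 10.6% were called downward and 6.48% and 9.9% upward. Both sets of calls were PIP1.1, PIP1.2, PIP1.4, PIP2.1, PIP2.2, PIP2.3, TIP1.1, TIP2.1, TIP2.2 and NIP5.1. Since the EV libraries are common to both, the calls of one are not independent of those of the other. For TIP1.1, GATA17 libraries had 38.6, 36.9 and 38.4 CPM and HSFB2A libraries 47.0, 34.5 and 41.5 CPM, against 133, 106 and 80.2 CPM in EV. The third EV library of batch 1 was the lowest for most of these genes, and without replicate 3 of every group GATA17 kept its 10 calls, and HSFB2A kept 9, lost TIP2.1 and gained 1. Without replicate 2 GATA17 kept 7 calls and HSFB2A 5. The summed level was 432 to 475 CPM in GATA17 and 431 to 539 CPM in HSFB2A libraries, against 664 to 940 CPM in EV. The median log2 fold change of the members was -0.41 for GATA17 and -0.31 for HSFB2A, against 0.02 and 0.05 over all genes. Of 6 stele markers, 3 fell for GATA17 (sums of 30.7 to 45.9 CPM, against 46.2 to 58.5 CPM in EV) and 4 for HSFB2A (25.0 to 41.7 CPM, against the same EV), and 1 of 3 endodermis markers rose for each, with sums of 17.3 to 18.6 CPM in GATA17 and 24.1 to 27.8 CPM in HSFB2A, against 6.33 to 10.2 CPM in EV. Their part in the aquaporin changes was not tested.

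ERF060 was chosen for description after its values were seen, and its 9 calls were all inductions, where 2.69% of all genes were called upward and 1.73% downward. They were PIP1.1, PIP2.1, PIP2.2, PIP2.3, TIP1.1, TIP2.1, TIP2.2, TIP2.3 and NIP1.2. Of these 9 calls 6 were left without replicate 2 of every group (PIP1.1, TIP1.1 and NIP1.2 were lost). Without replicate 3, and also at an FDR under 0.01, 7 were left. The median log2 fold change of the 29 members was 0.01, against -0.01 over all genes, and 16 of the 29 members had a positive value. PIP1.2, the aquaporin with the highest mean level in EV, was not among the calls. The summed level was 1288 to 1399 CPM in ERF060 libraries, the highest of all groups, against 716 to 820 CPM in EV. The endodermis markers summed to 21.5 to 26.6 CPM in ERF060, against 10.8 to 15.7 CPM in EV, with 1 of 3 called upward, and 0 of 6 stele and 0 of 3 root hair markers were called by edgeR. Their part in the aquaporin changes was not tested.

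**Figure D5:**
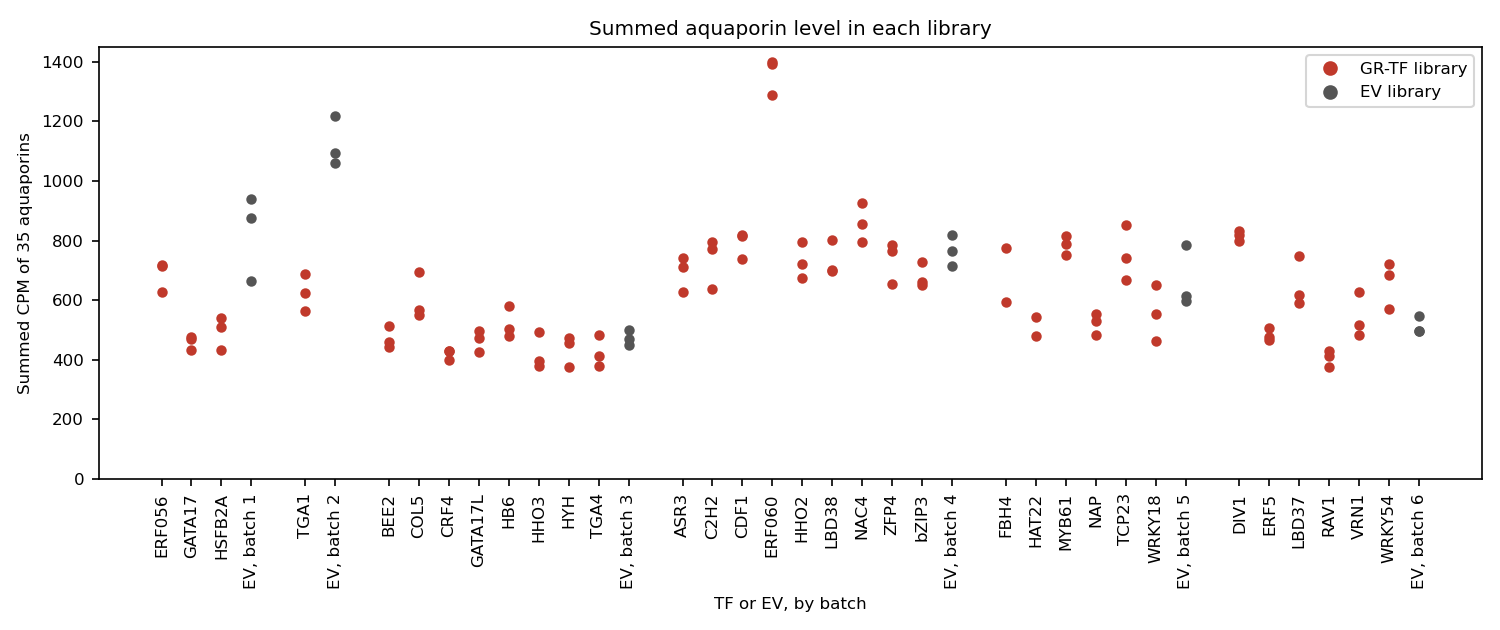
Summed CPM of the 35 aquaporins in each of the 115 libraries, with GR-TF libraries in red and EV libraries in grey at the right end of each batch. ERF060 libraries (1288 to 1399 CPM) lie above EV of batch 4 (716 to 820 CPM), and TGA1 libraries (564 to 688 CPM) lie below EV of batch 2 (1062 to 1218 CPM).

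DIV1 raised 7 members (NIP1.2, PIP1.2, PIP1.5, PIP2.7, TIP2.2, NIP2.1 and SIP1.2) and lowered TIP3.1, where 10% of all genes were called upward and 14.5% downward. Without replicate 2 of every group 4 of these 8 calls were left (PIP1.5, PIP2.7, TIP2.2 and SIP1.2 were lost), and those of TIP2.2 and NIP2.1 were each made under 4 of 10 other settings. Its summed level was 799 to 833 CPM, against 495 to 547 CPM in EV. The stele markers summed to 268 to 323 CPM in DIV1 libraries, against 102 to 120 CPM in EV, with 1 of 6 called upward and 1 downward, and their part was not tested. RAV1 lowered 7 members (PIP1.1, PIP2.1, PIP2.2, TIP2.1, TIP3.1, TIP3.2 and SIP1.1), where 12.4% of all genes were called downward and 11.6% upward, with a summed level of 374 to 429 CPM, against 495 to 547 CPM in the same EV libraries. Without replicate 2 of every group 2 of these 7 calls were left, those of PIP2.1 and TIP2.1. Of its stele markers 4 of 6 fell (55.3 to 59.9 CPM in RAV1, against 102 to 120 CPM in EV), and their part was not tested either.

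TFs of 1 family were set against each other in 6 pairs, with the effect of the first minus the effect of the second, each relative to its own EV. Both TFs of every pair were assayed in different batches, so TF and batch cannot be told apart in these differences. ERF056 and ERF060 differed for 8 of 29 members (1.63% of all genes differed), all lower for ERF056. The difference was -2.38 ± 0.26 (log2, edgeR FDR 1.7e-10) for PIP2.2 and -2.17 ± 0.33 for TIP2.2, which ERF056 lowered by 0.70 and ERF060 raised by 1.48. TIP2.3, which rose for both, was not among the members that differed. GATA17 was lower than GATA17L for 6 members (3.95% of all genes differed), led by PIP2.1 with -1.33 ± 0.24 (edgeR FDR 6.04e-05).

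TGA1 and TGA4, closely related bZIP factors, differed for 4 members (1.93% of all genes differed): TIP1.2, TIP1.1, PIP1.2 and SIP1.1, by -2.18 to -0.68 on the log2 scale. The other 11 members that were called for TGA1 and not for TGA4 did not pass the test of the difference. LBD37 and LBD38 differed for PIP1.2, PIP1.4 and NIP1.2 (6.99% of all genes), and WRKY18 and WRKY54 for PIP1.2, SIP1.1 and NIP1.2 (9.16% of all genes), with -1.43 ± 0.20 for NIP1.2 (edgeR FDR 2.43e-08). HHO2 and HHO3 differed for 0 members by edgeR and by DESeq2, and for 4 at an unadjusted p under 0.05, where 0.312% of all genes differed.

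Genes that work with the channels were taken as short lists. Proton pumps set up the gradients across the membranes that hold PIPs and TIPs. The 6 pump genes (AHA1 and AHA2 of the plasma membrane, AVP1, VHA-A, VHA-A2 and VHA-A3 of the tonoplast) had 63 edges in 198 tests (31.8%, against 15% over all genes with at least 10 CPM in EV, a level that all 6 reach), and 55 were repressions. TGA1 and ERF056 lowered all 6, and GATA17, HSFB2A and RAV1 lowered 5 each. AHA2 had 266, 297 and 248 CPM in TGA1 libraries, against 630, 477 and 516 CPM in EV. ERF060 lowered AHA1 by 0.39 ± 0.10 and had no other call among them. Of the genes for PIP traffic and turnover (SYP121, SYP61, TSPO and RMA1) there were 27 edges in 132 tests (20.5%), 14 of them upward. All 4 reach 10 CPM in EV, where 15% of tests over all genes were called. RMA1, a ubiquitin ligase that acts on PIP2.1, rose for 8 TFs, most for DIV1 (1.41 ± 0.14, log2), and fell for HAT22. The list of boron, urea and glycerol genes had 34 edges in 132 tests (25.8%), against the same 15%. DUR3, with a mean of 8.53 CPM in EV, is under that level. BOR1, the boron exporter that acts with NIP5.1 in roots, fell for 10 TFs, among them TGA1, GATA17 and HSFB2A, which also lowered NIP5.1, and rose for NAP by 2.75 ± 0.29. The 4 low oxygen genes had 18 edges in 132 tests (13.6%), close to the 15% of genes with at least 10 CPM in EV. AT4G10270, with a mean of 0.504 CPM in EV, is under that level.

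Promoters of 500 bases upstream were searched for short motifs on both strands. TGACG, the core bound by TGA factors, occurred in 9 of the 35 aquaporin promoters and in 32% of 27443 promoters of all genes. It was present for 4 of the 15 members called for TGA1 and for 5 of the 14 not called. GAANNTTC, part of the heat shock element, occurred in 8 of 35 and in 18.3% of all promoters, and in 1 of the 10 members called for HSFB2A and 6 of the 19 not called. CCGAC occurred in 7 of 35 and in 21.4% of all promoters, and in 3 of the 9 members called for ERF060 and 4 of the 20 not called. These are matches of letters and do not show binding.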

How the data were processed

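RNA-seq counts of 115 libraries were analysed. The authors trimmed reads, aligned them to TAIR10 with TopHat2 and counted reads per gene (how reads with several matches were treated is not given in the sources used here), and the deposited values are raw counts without normalization. The 22883 genes that reached 10 counts in 3 or more libraries were fitted with edgeR 4.0.16 in R 4.3.3: TMM normalization, robust quasi-likelihood fit, TF and batch as terms, 39 coefficients and 76 residual degrees of freedom. Each TF was tested against EV, with p-values adjusted within a TF over all genes at a threshold of 0.05. As in the study, genes on its list of 1421 CHX-responsive genes did not count as targets, which left 21485 genes. The SE was taken from the log2 fold change and the F statistic. CPM uses TMM-normalized library sizes. Total counts per library (1542961 to 45372240) limit precision, most in batches 5 and 6, and reads were counted without molecular identifiers, so floors cover counting error only. Names, positions and sequences come from RefSeq on TAIR10.1, whose nuclear chromosomes have the TAIR10 lengths, and all 35 members were matched. Aquaporin names are written with a dot (PIP2.2 for PIP2;2). The members and lists were chosen with earlier results of these data known. By rule, per-library values are given for the 8 members called for most TFs (ties by higher mean CPM), each with its largest called induction and repression (16 changes), and the 3 TFs with most calls are described over all members. The other per-library values in the text were chosen after they were seen.

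The fit was tested on simulated counts with 200 genes changed in the TGA1 libraries. At a true log2 fold change of -1, 37 of 50 genes were called in the right direction, and at 1, 40 of 50. At -2 and at 2, 50 of 50 were called. A missing call thus does not show that a gene was unchanged. No libraries were identical, and the closest of 113 replicate pairs differed by 1.72 times the counting noise (chi-square per degree of freedom). Same-numbered TF and EV libraries were checked for pairing: the correlation of their deviations ranged from -0.0661 to 0.253, with a median of 0.0241. It was over 0.1 for 27 of 97 pairs, and for all 3 pairs of 1 of 31 TFs. The fit reported here did not pair samples by number. An effect shared by libraries of the same number within a batch is not excluded by this check, and a replicate block was fitted as an alternative. The alternatives were DESeq2 1.42.0, its size factors in edgeR, no filter, a replicate block, each TF in its own batch, batches 1 to 4 and 5 and 6 apart, an FDR under 0.01, each replicate number left out, PIP2.2 and PIP2.3 summed, and TIP4.1 kept. Correlations between TFs that share EV libraries were not computed.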

Additional observations from a re-analysis of the deposited data

Results flagged for a closer look

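In 5 of the 6 pairs of related TFs the effect on some aquaporins differed by a test of the difference itself (edgeR, FDR under 0.05 over all genes). Of the 29 members, 4 differed for TGA1 minus TGA4 (1.93% of all genes did), 6 for GATA17 minus GATA17L (3.95% of all genes) and 8 for ERF056 minus ERF060 (1.63% of all genes). For LBD37 minus LBD38 and for WRKY18 minus WRKY54 there were 3 each, where 6.99% of all genes differed for the LBD pair and 9.16% for the WRKY pair. All members that differed were lower for the first TF, except PIP1.2 and PIP1.4, which were higher for LBD37 than for LBD38. The TFs of each pair come from different batches, so batch and TF cannot be told apart.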

How the results depend on the processing

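Of the 112 edges, 41 were called under all 10 other settings and 62 under at least 9, and 16 were called under 5 or fewer, 13 of them in batches 5 and 6. DESeq2 called 125 edges, 15.2% of the 825 member tests to which it gave an adjusted p, against 13% over all genes. With tests without an adjusted p counted as not called the shares were 13.1% and 10.6%, and for genes with at least 10 CPM in EV they were 22.8% and 17.7%. The size factors of DESeq2 in edgeR gave 113 edges (11.8%, against 8.96% over all genes), no filter 101 (9%, against 5.43%), each TF in its own batch 138 (16.1%, against 10.7%) and batches 1 to 4 and 5 and 6 apart 129 (14.4%, against 10.4%), and with TIP4.1 kept there were 113. With the replicate block there were 134 edges (14%, against 10.5% over all genes), of which 110 were among the 112. The calls of NIP2.1 for DIV1 and TIP3.2 for RAV1 were lost under the block, and the 16 changes chosen by rule kept their calls. At an FDR under 0.01 there were 66 edges (6.9%, against 5.25% over all genes), 24 of them inductions, with 33 for PIPs, 23 for TIPs, 10 for NIPs and SIPs, and 14 differences between TFs of a family in place of 24. Leaving out 1 replicate number of every group gave 45 to 109 edges, 17 to 50 inductions, 28 to 66 repressions, 22 to 55 PIP edges, 15 to 32 TIP edges, 8 to 27 NIP and SIP edges, 4 to 28 family differences and 5 to 10 calls for HSFB2A. The lowest counts came without replicate 2, where 4.7% of the member tests and 3.71% of those over all genes were called, and the cause was not tested. GATA17 had 7 to 10 and TGA1 11 to 16 calls over these settings. None of the 16 changes reversed its sign under these settings. Family differences could not be fitted for each TF in its own batch, nor LBD37 against LBD38 with batches 1 to 4 and 5 and 6 apart, since the pairs span these sets. TIP3.2 had 12 counts over the EV libraries of batch 6, and small differences are not detectable at such counts.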
